A study of Homo sapiens with 4 samples.

Results

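The proteins of the large (60S) subunit of the cytoplasmic ribosome were followed through their genes and introns. Members were the genes named RPL followed by a number, with or without an A, together with RPLP0, RPLP1 and RPLP2. This rule found 43 of the 15902 genes listed in the deposited intron tables, with 173 of the 142206 introns. The annotated transcripts of these genes (GENCODE release 29) hold 199 introns, so 26 of their introns were not listed and were not analysed here. RNA came from SUM159, an established human breast cancer cell line of the triple-negative type, from which a cytoplasmic fraction was prepared and polyadenylated RNA selected. All 4 libraries thus share 1 cell line and 1 fraction. Of these, 2 came from cells given H3B-8800, a small molecule that inhibits the spliceosome, and 2 from cells given its solvent DMSO, each for 12 hours. The series' design text calls the libraries of a group biological duplicates, and the comparison asks what inhibiting splicing does to the RNA found in the cytoplasm.

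The large subunit joins amino acids in its peptidyl transferase centre, passes the growing chain through a tunnel and recruits translation factors at a flexible stalk. Its proteins are needed in near equal numbers, and their genes are among the most strongly expressed in a dividing cell. Many of these genes are short, have several introns and carry small nucleolar RNAs (snoRNAs), which guide the modification of ribosomal RNA, inside introns. H3B-8800 binds the SF3B complex, the part of the spliceosome that recognises the branch point near the 3′ end of an intron.

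For every intron the tables gave the reads inside it, called intronic, and allowed the reads that span it, called spliced, to be computed. Library totals, recovered from the tables, were 58000000 and 62000000 reads for the treated cells and 64000000 for either DMSO library. In the members there were 1166469 and 1273380 spliced reads with H3B-8800 against 1295941 and 1283101 in DMSO libraries. All 6 markers of mesenchymal triple-negative lines that were looked for had reads, with a summed level of 5503.9 to 6585.5 CPM (spliced reads scaled to a common library size with TMM factors). VIM alone gave 4919.9 to 6070.1 of this, and EGFR 1.6 to 5.88 CPM. The luminal breast markers summed to 2.09 to 4.98 CPM, with no spliced read of ESR1, PGR or TFF1, and blood cell markers to at most 0.904 CPM.

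The introns whose sequences are printed are those on which the results below turn, as far as an annotated transcript covers them. Sequences are the transcribed strand from GENCODE release 29 transcripts on GRCh38 (hg38), 5′ to 3′. First come 2 short introns with far more intronic reads after H3B-8800, shown whole: intron 2 of RPL9 (chr4:39458310-39458393, minus strand, 84 bp) and intron 1 of RPL24 (chr3:101686558-101686671, minus strand, 114 bp). Capitals mark the first and last 2 bases and each CTNAC, a short stretch that resembles human branch points, where N is any base.
RPL9 intron 2: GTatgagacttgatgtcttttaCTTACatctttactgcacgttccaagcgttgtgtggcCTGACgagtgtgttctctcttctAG
RPL24 intron 1: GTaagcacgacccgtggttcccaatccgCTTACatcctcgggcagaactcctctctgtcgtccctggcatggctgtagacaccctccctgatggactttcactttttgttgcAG

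For the raised intron 4 of RPL11 (chr1:23694792-23695797, plus strand) and for 4 introns whose ratio of intronic to spliced reads differed little between the groups, the last 50 intron bases and the first 3 bases of the next exon are shown. The contrast introns are intron 1 of RPL23 (chr17:38853106-38853697, minus strand), intron 3 of RPL23 (chr17:38850476-38852603, minus strand), intron 1 of RPL41 (chr12:56116800-56117188, plus strand) and intron 5 of RPL5 (chr1:92836393-92837455, plus strand). Capitals mark the AG at the intron end. No CTNAC lies in these windows, nor in the last 50 bases of intron 1 of RPL24, whose marked CTTAC lies further upstream. The introns shown whole and these windows are thus not searched over the same length.
RPL11 intron 4: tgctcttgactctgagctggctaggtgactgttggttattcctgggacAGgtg
RPL23 intron 1: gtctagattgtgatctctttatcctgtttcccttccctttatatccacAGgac
RPL23 intron 3: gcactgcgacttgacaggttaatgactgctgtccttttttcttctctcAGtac
RPL41 intron 1: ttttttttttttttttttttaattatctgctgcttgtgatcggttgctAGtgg
RPL5 intron 5: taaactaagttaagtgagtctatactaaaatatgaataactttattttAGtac

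Such a window could be read for 98 member introns, those on chromosome 8 included, and all 98 ended in AG. CTNAC lay in 31 of them (31.6%), against 24.8% of the 17120 windows read over all listed introns. By the call of the ratio test described below, CTNAC lay in the windows of 11 of 43 raised, 0 of 2 lowered and 5 of 21 uncalled member introns. The median share of pyrimidines (C or T) in the 20 bases from position -23 to -4 was 75% in both sets. Among the 66 tested member introns with a window, the pyrimidine share had a Spearman rho of 0.01 with the change of the intronic-to-spliced ratio described below. The same rho was -0.01 over all 2835 tested introns with a window. These introns share genes and libraries, so the values are descriptions only, and a match of letters is not a mapped branch point.

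Spliced reads of most large subunit genes were a little higher after H3B-8800, while those of the stalk proteins were lower. Of the 43 genes, 29 rose and 5 fell (quasi-likelihood test of edgeR and TMM factors, Benjamini-Hochberg adjusted p under 0.05). Over all 9468 genes tested, 32.8% rose and 32.7% fell. Of 27 small subunit genes tested, 19 rose and 3 fell, with a median of 0.18. The median change of the members was 0.22 on the log2 scale, against 0.01 over all tested genes, and no member rose or fell by as much as 2-fold. Members supplied 10.1% and 10.2% of all spliced reads with H3B-8800 against 9.1% and 9.04% in DMSO libraries. As a share of the library totals, their spliced reads were 2.01% and 2.05% with H3B-8800 against 2.02% and 2.0% in DMSO libraries, so the groups overlapped on that scale. Scaled to library totals, 17 members rose and 13 fell, with a median of 0.04, while 23.6% of all genes rose and 41.5% fell, with a median of -0.16. On that scale 5 small subunit genes rose and 8 fell. The direction of the family therefore holds relative to other spliced RNA and not relative to all reads. In bulk RNA, a change in every cell and a change in some of the cells cannot be told apart.

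**Figure D1:**
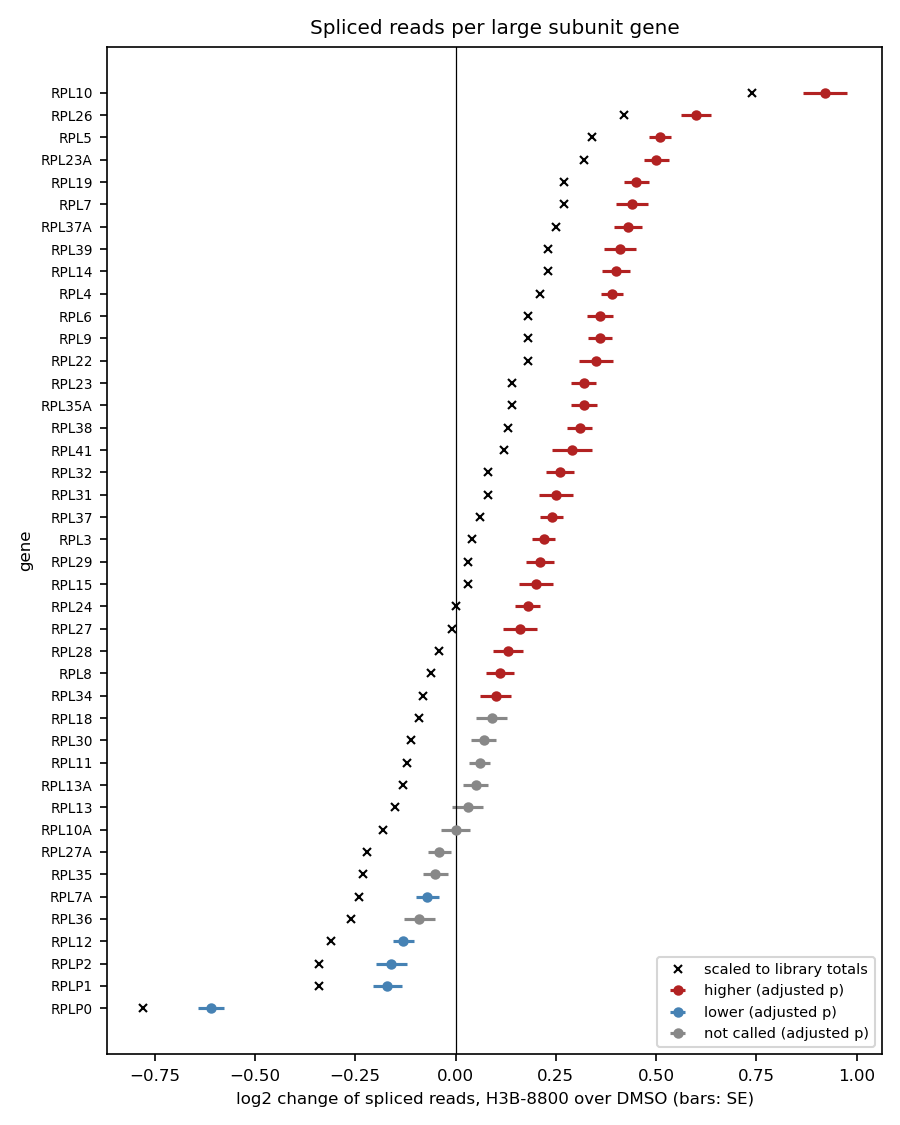
Log2 change of spliced reads (H3B-8800 over DMSO, 2 libraries each) for 42 of the 43 genes. Points are TMM-scaled estimates with SE bars, coloured by the edgeR call, and crosses are the same genes scaled to library totals. RPL10 has the highest value (0.92) and RPLP0 the lowest (-0.61), and the other 3 stalk-base and stalk genes RPL12, RPLP1 and RPLP2 lie next to RPLP0.

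The stalk is built from RPLP0, which anchors it, and the acidic proteins RPLP1 and RPLP2, and RPL12 sits at its base. RPLP0 had 3170 and 3274.4 CPM with H3B-8800 against 4779.7 and 5039.4 CPM in DMSO libraries. Its 6 listed introns each had fewer spliced reads in both treated libraries than in either DMSO library, and the gene fell by 0.61 (log2, SE 0.032; edgeR, Benjamini-Hochberg adjusted p = 5.35e-09). RPL12 had 3962.3 and 3983.8 CPM against 4329.3 and 4372.8, lower at each of its 6 introns, and fell by 0.13 (SE 0.027). This was the smallest of the stalk changes, about as large as those of the acidic proteins. RPLP1 had 1069.6 and 1104.9 CPM against 1206.2 and 1234.9, with 1 listed intron, and fell by 0.17 (SE 0.036). RPLP2 had 1300 and 1377.4 CPM against 1471.7 and 1520.4, and fell by 0.16 (SE 0.038). The groups did not overlap in any of these 4 genes, and with library totals all 4 fell further, RPLP0 by 0.78. The RPLP2 call was lost without H3B-8800 replicate 1 (log2 change -0.12, edgeR, Benjamini-Hochberg adjusted p = 0.0507). In introns without an annotated exon inside, RPL12 (-0.08) and RPLP2 (-0.07) did not pass.

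The neighbours of the stalk went the other way. RPL9, near the site where translation factors bind, had 2178.1 and 2164.1 CPM with H3B-8800 against 1685.3 and 1702.7 in DMSO libraries, a rise of 0.36 (SE 0.031) seen at all 6 listed introns. RPL10, which is added late in subunit maturation, had 389.8 and 407.7 CPM against 200.9 and 221, a rise of 0.92 (SE 0.055; edgeR, Benjamini-Hochberg adjusted p = 1.4e-08). Only 1 of the 5 RPL10 introns was listed, so this change rests on a single junction. By role, the 6 stalk and factor-binding genes thus held 4 of the 5 falls of the family. The roles were assigned with these results known, so this count is a description.

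RPL5 and RPL11 enter the subunit as a particle with 5S ribosomal RNA and are also known to bind MDM2, the regulator of p53. Their spliced reads differed in behaviour. RPL5 had 4699.6 and 4570.9 CPM with H3B-8800 against 3249.6 and 3239.9 in DMSO libraries, higher at all 7 introns, a rise of 0.51 (SE 0.028; edgeR, Benjamini-Hochberg adjusted p = 6.74e-09). RPL11 had 4922.3 and 4915.2 CPM against 4709.3 and 4755.3. The RPL11 groups did not overlap, but its change of 0.06 (SE 0.026) did not pass the threshold (edgeR, Benjamini-Hochberg adjusted p = 0.0748), and with library totals it was -0.12 and called lower.

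Of the 8 genes whose proteins line the exit tunnel or surround its opening, 7 rose. Beside this, 29 of all 43 members and 32.8% of all tested genes rose. Counts by role are descriptions, as the roles were assigned with these results known. RPL26, at the tunnel exit, had 4616.4 and 5034.5 CPM against 3237.1 and 3151.9, a rise of 0.60 (SE 0.037). RPL23A, the docking site for factors that receive the new chain, had 4249.2 and 4107.1 CPM against 3023.5 and 2903.1, a rise of 0.50 (SE 0.031). RPL19 had 3874.6 and 3995.8 CPM against 2938.2 and 2828.6, a rise of 0.45 (SE 0.031), again at all 5 introns. RPL26, RPL23A and RPL19 were among the 6 members named for the smallest adjusted p among rises. That their changes were several times their SE, with the groups apart, follows from this choice. RPL4, which narrows the tunnel with an internal loop, had 6177.7 and 6036 CPM against 4724.2 and 4602.1, a rise of 0.39 (SE 0.027). RPL22, which also binds RNA outside the ribosome, had 1924.3 and 1739.8 CPM against 1445.6 and 1420.1, a rise of 0.35 (SE 0.043). RPL39 (0.41) and RPL31 (0.25) rose as well, and RPL35 did not pass (-0.05, SE 0.032). RPL31 did not pass with library totals, and the other 6 did.

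Among the 6 proteins near the peptidyl transferase centre or in bridges to the small subunit, 5 rose. The rise was again called in 29 of all 43 members and 32.8% of all tested genes. RPL3, which reaches towards the centre, had 2816.1 and 2847.7 CPM with H3B-8800 against 2420.3 and 2448.5 in DMSO libraries, a rise of 0.22 (SE 0.029) that was 0.04 and not called with library totals. RPL23 (0.32), RPL41 (0.29), RPL24 (0.18) and RPL8 (0.11) also rose, of which RPL23 alone was called with library totals, and RPL30 did not pass (0.07, SE 0.031). The other 21 genes included 14 that rose, 6 that did not pass and 1 that fell. That fall was RPL7A, with 3280.3 and 3267 CPM against 3435.4 and 3424.1, which fell by 0.07 (SE 0.028; edgeR, Benjamini-Hochberg adjusted p = 0.0477). The RPL7A call was lost when any 1 library was left out (adjusted p 0.0791 without H3B-8800 replicate 1, 0.11 without replicate 2, and 0.168 and 0.127 without DMSO replicates 1 and 2, edgeR). RPL34 (0.10) was called by a similar margin and was lost without H3B-8800 replicate 1 (adjusted p 0.147) or either DMSO replicate (0.191 and 0.158, edgeR).

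Intronic reads made up a larger part of the members' RNA after H3B-8800. They numbered 16851 and 17987 after treatment, and 7022 and 7288 in DMSO libraries. Of intronic plus spliced reads, this was 1.42% and 1.39% against 0.539% and 0.565%, or 1.41% ± 0.022 against 0.552% ± 0.018 (SD over 2 libraries each), 2.55 times as much. The gap between the groups was many times the spread within either of them. In all genes outside the ribosomal families the share was 9.45% ± 0.054 against 4.85% ± 0.0017 (SD over 2 libraries), a ratio of 1.95. Small subunit genes (RPS), the most similar family, had 1.2% against 0.454%, a ratio of 2.64. The large subunit exceeded the small by 0.224 and 0.192 percentage points with H3B-8800 and by 0.096 and 0.0995 with DMSO. For each of these differences the two-sided exact permutation test gave p = 0.33, the smallest that 2 libraries against 2 allow.

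These reads sat in few introns. The 10 introns with the most intronic reads held 51.7% to 53.4% of them in each library, and 59 to 86 of the 173 introns had under 10. In unscaled reads, the mean was higher with H3B-8800 in 130 introns, lower in 36 and equal in 7, and 5 introns supplied 57.8% of the net gain. The same count was not made over all listed introns. Intronic reads over all of them numbered 1035695 and 1126434 with H3B-8800 against 629498 and 628580 in DMSO libraries. Without the single intron with the most intronic reads, intron 3 of RPL30, the difference in share was 0.723 percentage points in place of 0.857. The median over members of the share per gene was 0.735% with H3B-8800 and 0.31% with DMSO, a difference of 0.425 percentage points.

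**Figure D2:**
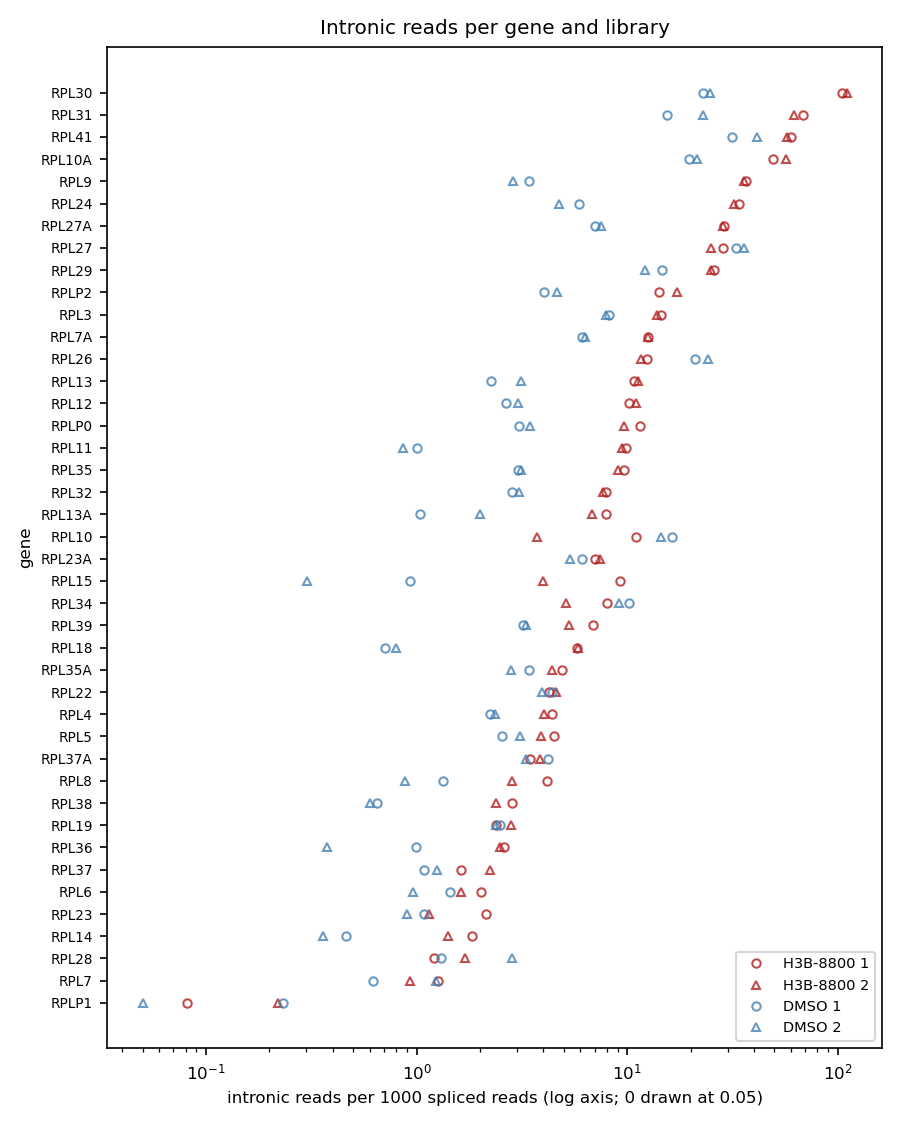
Intronic reads per 1000 spliced reads (log axis) for 42 genes in each library, red for H3B-8800 and blue for DMSO, ordered by the treated mean. RPL9 moves from 3.42 and 2.86 to 36.6 and 35.8, while RPL26 and RPL27 lie higher with DMSO. Intron lengths differ between genes, so the comparison is within a gene.

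With the intronic and spliced reads of a gene in 1 model, the intronic-to-spliced ratio rose in 31 of 42 tested members and fell in 4 (edgeR, Benjamini-Hochberg adjusted p under 0.05). It rose in 65.4% and fell in 2.35% of all 7566 genes tested. The members' median change was 1.19 on the log2 scale, against 1.35 over all tested genes, and 24 of 27 tested small subunit genes rose. RPLP1 had too few intronic reads for the test.

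Among stalk and factor-binding genes, 3 of the 4 with fewer spliced reads had more intronic reads. RPLP0 had 418 and 392 intronic reads in treated and 212 and 251 in DMSO libraries, and its ratio rose by 1.69 (log2, SE 0.15). RPL12 had 462 and 543 against 166 and 190, and the ratio rose by 1.90 (SE 0.15). RPLP2 had 210 and 295 against 85 and 101, and the ratio rose by 1.86 (SE 0.19). In each of these genes intronic reads remained a small number beside the spliced reads, for RPLP0 11.5 and 9.64 per 1000 with H3B-8800. RPL9 combined a rise of spliced reads with 912 and 963 intronic reads against 83 and 70, and the ratio rose by 3.53 (SE 0.17). RPL10 was the exception of the group, with 11 and 3.75 intronic reads per 1000 spliced reads against 16.3 and 14.5. Its ratio fell by 1.11 (SE 0.37; edgeR, Benjamini-Hochberg adjusted p = 0.0158), a call that was lost without H3B-8800 replicate 2 (log2 change -0.48, adjusted p = 0.272) and without DMSO replicate 1 (-1.02, adjusted p = 0.0775).

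In the 5S particle genes the ratio rose by 3.37 (SE 0.16) in RPL11, from 1 and 0.863 intronic reads per 1000 spliced reads with DMSO to 9.89 and 9.43. In RPL5 it rose by 0.57 (SE 0.17), from 2.55 and 3.11 to 4.48 and 3.91, and this call was lost without H3B-8800 replicate 1 (0.47; edgeR, Benjamini-Hochberg adjusted p = 0.0764). The tunnel genes were divided. RPL4 (0.88), RPL31 (1.78), RPL35 (1.61) and RPL39 (0.90) rose, RPL26 fell by 0.91 (SE 0.14), and RPL19 (0.09), RPL22 (0.08) and RPL23A (0.33) did not pass. These sums hide differences between introns. In RPL26, intron 1 held 95.6% of the intronic reads with DMSO and fell, intron 2 did not pass (0.29), and intron 3 rose by 1.49 (SE 0.30). In RPL22, intron 1 did not pass (-0.48, SE 0.26), while intron 3 rose by 2.90 (SE 0.42). In RPL4 introns without an annotated exon inside, the change was 0.03 and not called. RPL23A passed without DMSO replicate 1 (0.43; edgeR, Benjamini-Hochberg adjusted p = 0.0319). All 6 genes at the peptidyl transferase centre and bridges rose, from 0.70 in RPL23 and RPL41 and 0.81 in RPL3 to 2.64 (SE 0.17) in RPL24. Beside these counts by role, the ratio rose in 31 of 42 tested members and 65.4% of all tested genes.

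Among the other 21 genes, the ratio of RPL15 rose by 3.36 (SE 0.55), with 55 and 26 intronic reads against 6 and 2. The treated libraries differed, and the change was 4.33 without DMSO replicate 1, 2.77 without DMSO replicate 2 and 2.66 without H3B-8800 replicate 1. That of RPL18 rose by 2.93 (SE 0.24), with 106 and 125 intronic reads against 16 and 18. The ratio fell by 0.37 (SE 0.15) in RPL27, of which intron 1 held 85.7% of the intronic reads. It fell by 0.57 (SE 0.24; edgeR, Benjamini-Hochberg adjusted p = 0.0461) in RPL34, which was not called without H3B-8800 replicate 2 (-0.28) or either DMSO replicate (-0.49 and -0.65).

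Intron by intron, 103 of the 173 averaged 10 or more intronic and 10 or more spliced reads and were tested. The ratio rose in 65 and fell in 7 (edgeR, Benjamini-Hochberg adjusted p under 0.05), against 56.5% and 2.88% of all 9937 introns tested. Their median change was 1.22 (log2), against 1.62 over all. The other 70 introns together had 0.715 ± 0.0071 intronic reads per 1000 spliced reads in treated and 0.335 ± 0.03 in DMSO libraries (SD, n = 2 each). Introns of 1 transcript often differed, as the map of ratio change by intron number shows.

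**Figure D3:**
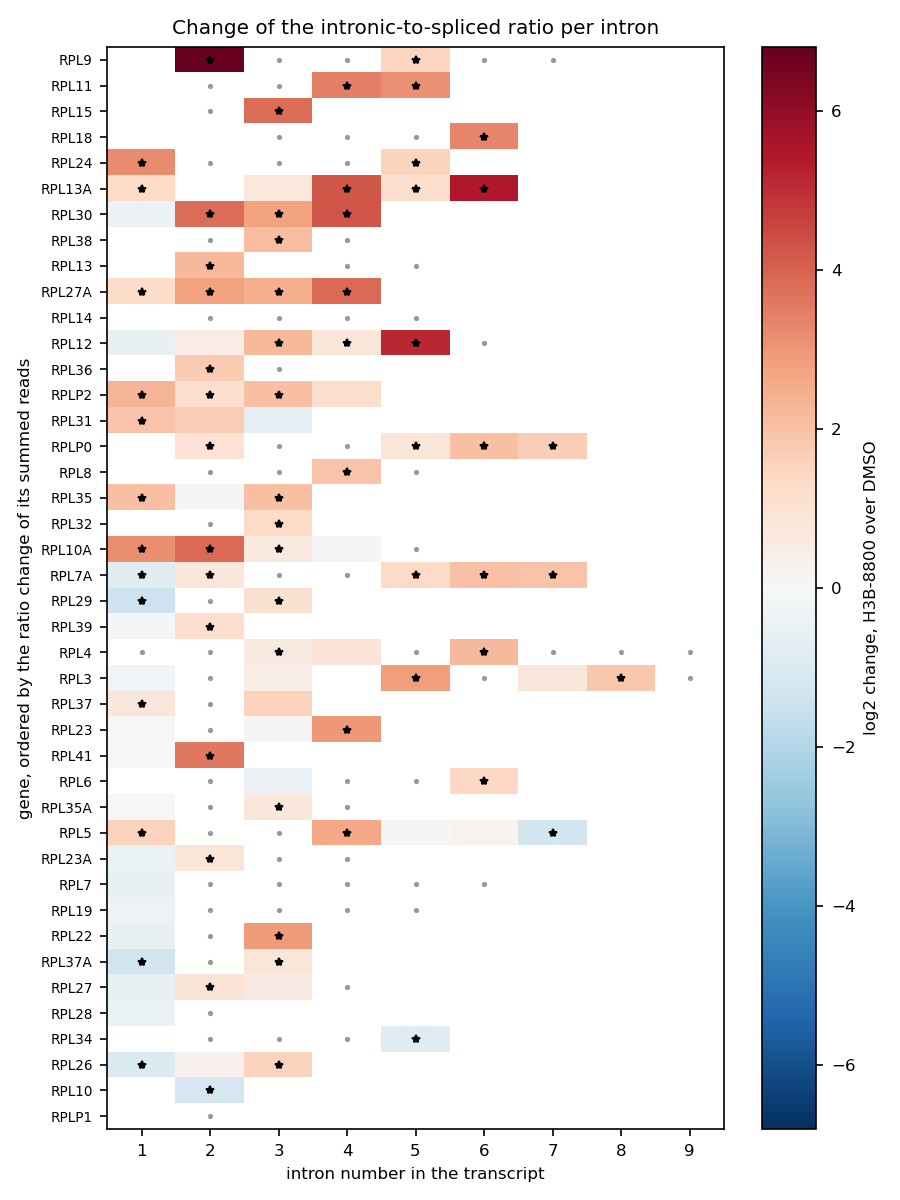
Log2 change of the intronic-to-spliced ratio for each tested intron of 42 genes (colour), by intron number from the 5′ end, with genes ordered by the change of their summed reads. Stars mark introns that passed the test, grey dots introns with too few reads, and white cells introns not listed or not present. Blue cells lie mostly in column 1, and intron 2 of RPL9 is the darkest red (6.71).

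Intron 2 of RPL9, printed whole above, had 712 and 741 intronic reads after treatment, and 4 and 10 with DMSO. Its ratio rose by 6.71 (SE 0.32; edgeR, Benjamini-Hochberg adjusted p = 1.38e-07), the largest change of any tested member intron, and by 7.45 without DMSO replicate 2. It held 77.5% of the gene's intronic reads with H3B-8800 and 9.15% with DMSO. In RPL12, intron 5 (chr9:127447990-127448336, minus strand, 347 bp), in which no exon is annotated, had 290 and 371 intronic reads against 12 and 11, and the ratio rose by 5.14 (SE 0.27). The other 5 introns of RPL12 gave 93.5% of its intronic reads with DMSO.

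RPL30, whose protein bridges the subunits, had a pair of raised introns. Intron 2 (chr8:98045089-98045346, minus strand, 258 bp) had 958 and 1162 intronic reads against 96 and 101, and the ratio rose by 3.79 (SE 0.21). Intron 3 (chr8:98042776-98044942, minus strand, 2167 bp) had 2020 and 2148 against 370 and 384, and the ratio rose by 2.76 (SE 0.19). The gene AP003352.1 lies antisense to intron 3, and whether reads were counted by strand is not known here, so reads of the 2 genes may be mixed there. Intron 4 of RPL27A (chr11:8684893-8685677, plus strand, 785 bp, with SNORA3B inside) had 307 and 319 intronic reads against 26 and 26, and the ratio rose by 3.84 (SE 0.23). Intron 4 of RPL11 had 386 and 398 against 44 and 42, and the ratio rose by 3.41 (SE 0.20). Intron 1 of RPL24 had 789 and 766 against 135 and 110, while spliced reads across it numbered 1955 and 2636 against 3069 and 3619, and the ratio rose by 3.22 (SE 0.26). In all 7 of these introns the treated libraries lay far above the DMSO libraries. They were chosen for the smallest adjusted p among raised ratios, so this gap follows from the choice.

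**Figure D4:**
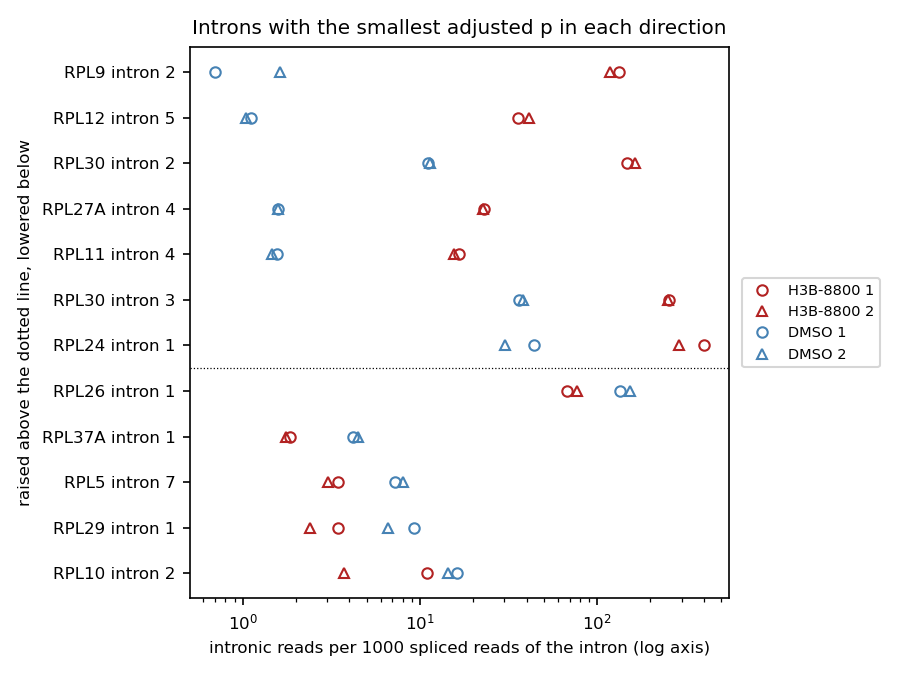
Intronic reads per 1000 spliced reads of the same intron (log axis) in the 4 libraries, for 7 raised and 5 lowered introns among those with the smallest adjusted p. Treated libraries lie at 133.1 and 117.7 for RPL9 intron 2 against 0.695 and 1.63 with DMSO, and at 67.7 and 76.9 for RPL26 intron 1 against 135.1 and 153.9.

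Of the 7 lowered introns, 5 have values given here. Intron 1 of RPL26 (chr17:8382316-8383156, minus strand, 841 bp, before the coding sequence) had 491 and 592 intronic reads in treated and 939 and 1047 in DMSO libraries, and its ratio fell by 1.00 (SE 0.20; edgeR, Benjamini-Hochberg adjusted p = 0.00105). It overlaps the gene AC135178.2 on the same strand, so these reads may belong to either. Intron 1 of RPL37A (chr2:216498878-216499269, plus strand) had 30 and 32 against 65 and 66, and its ratio fell by 1.25 (SE 0.25). Intron 7 of RPL5 (chr1:92840640-92841765, plus strand, with SNORA66 inside) had 20 and 18 against 36 and 38, and its ratio fell by 1.23 (SE 0.31), although that of the whole gene rose. Intron 1 of RPL29 (chr3:51995470-51995856, minus strand) had 10 and 8 against 31 and 24, and its ratio fell by 1.43 (SE 0.40), a call that was lost without H3B-8800 replicate 2 (-1.18; edgeR, Benjamini-Hochberg adjusted p = 0.0913). The single listed intron of RPL10, intron 2 (chrX:154398543-154399337, plus strand), had 49 and 19 against 47 and 46, so the groups overlapped in intronic reads and the lower ratio came with more spliced reads, 4460 and 5065 against 2890 and 3178. AC245140.2 lies antisense to it, and the RPL10 call (-1.12, adjusted p = 0.0315) was lost without H3B-8800 replicate 2 (-0.48, adjusted p = 0.265), without DMSO replicate 1 (-1.03, 0.0916) and without DMSO replicate 2 (-1.20, 0.0677; edgeR). Introns 1 of RPL7A (-0.81) and 5 of RPL34 (-0.84) completed the lowered introns. With no filter on low counts, the falls in RPL5, RPL29 and RPL10 were not called.

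The introns with the smallest changes still had reads. Intron 1 of RPL41 had 209 and 250 intronic reads after treatment against 178 and 225, a ratio change of -0.03 (SE 0.24), while intron 2 of the same gene passed as higher. Intron 1 of RPL35A had 17 and 21 against 16 and 30 (0.00), and intron 4 of RPL10A had 32 and 46 against 41 and 58 (-0.09, SE 0.29). For the RPL35A intron the approximated SE of the ratio (0.19) is not reliable, because the change is so near 0. Its intronic reads alone had an SE of 0.48, so a change of moderate size could not be detected there either. Intron 1 (0.01) and intron 3 (0.10) of RPL23 and intron 5 of RPL5 (-0.08) had 7 to 25 intronic reads a library. The groups overlapped in each of these introns. With so few reads the SEs of the last 3 were 0.38 to 0.51, so changes of moderate size could not be detected there, and intron 1 of RPL23 gave -0.60 without H3B-8800 replicate 1.

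Place within the gene separated the introns. The 28 first introns had 26.9 ± 0.41 intronic reads per 1000 spliced reads in treated and 22.8 ± 1.6 in DMSO libraries (SD, n = 2 each), 1.18 times as much. Without intron 1 of RPL24 that ratio was 0.999. The 106 internal introns had 13.6 ± 0.12 against 3.16 ± 0.00043, a ratio of 4.31, and the 39 last introns had 8.41 ± 0.45 against 2.68 ± 0.16, a ratio of 3.13. Without the intron of the class with the most intronic reads, these ratios were 4.03 and 3.5. Among tested introns, 10 of 27 first introns rose and 4 fell, 36 of 53 internal introns rose and 1 fell, and 19 of 23 last introns rose and 2 fell. Nearly all first introns were tested, but only 53 of 106 internal and 23 of 39 last ones. An intron with few DMSO reads passed the filter only through its treated reads, so comparisons of tested introns by place partly reflect the filter. Over all tested introns of any gene and place, 56.5% rose and 2.88% fell. The median log2 change of the members' tested introns was -0.12 for first, 1.19 for internal and 1.66 for last introns. By this median last introns changed most, while in the pooled reads internal introns did. In small subunit genes the ratios of first, internal and last introns were 1.99, 2.89 and 3.21. In all other genes they were 1.45, 2.09 and 2.46, so first introns were lowest there too. The log2 ratio of internal to first introns was -0.99 and -0.98 with H3B-8800 against -2.78 and -2.93 in DMSO libraries, a difference of 1.87 (exact permutation p = 0.33, the smallest possible). The same difference was 0.54 in small subunit genes and 0.53 in all other genes, and whether the families differ in it was not tested.

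Annotated exons move with this pattern. Another exon of the same gene lies inside 20 of the 28 first introns, and these had 21.2 intronic reads per 1000 with H3B-8800 and 23.2 with DMSO. The 8 first introns without one had 54 against 21.4, a ratio of 2.53, or 1.49 without intron 1 of RPL24. Internal introns had a ratio of 3.56 with such an exon inside and 8.7 without one (45 introns). The part of these exons in the difference between first and internal introns was not tested.

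**Figure D5:**
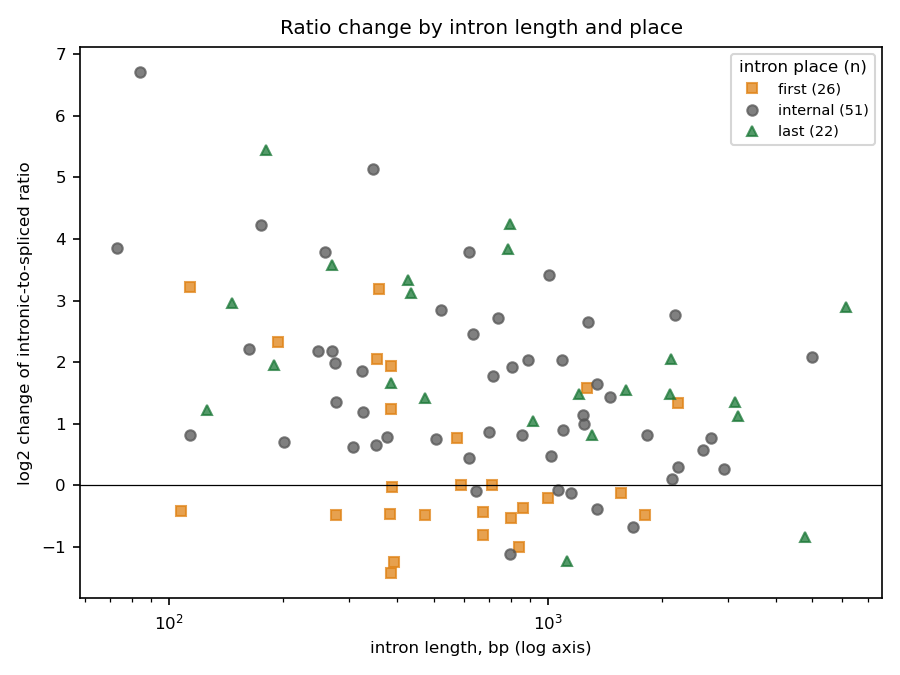
Log2 change of the intronic-to-spliced ratio against intron length (log axis, bp) for 99 of the 103 tested introns, with first introns as squares, internal introns as circles and last introns as triangles. The highest point is intron 2 of RPL9 (84 bp, 6.71), and most points below 0 are first introns.

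Among tested introns, shorter ones had larger changes by a modest margin. Across the 103 tested introns, Spearman's rho between length and ratio change was -0.29, and it was -0.33 over all 9937, as a description since introns share genes and libraries. The filter passed 8 of the 23 introns of up to 150 bp and 37 of the 46 over 1000 bp. An intron with few DMSO reads could pass it only through many treated reads, so both rho values depend in part on the filter. The 23 introns of up to 150 bp had a ratio of treated to DMSO levels of 3.99, or 3.04 without intron 1 of RPL24. Introns of 151 to 500 bp had 2.34, those of 501 to 1000 bp 2.31, and longer ones 2.80. Without the intron of the class with the most intronic reads, these were 1.97, 1.40 and 2.06. The share of G and C over the whole intron, read for 45 tested introns, had a rho of 0.08 with the change, as it had over the 1001 introns of all genes.

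The 30 introns that hold an annotated snoRNA had 17.7 intronic reads per 1000 spliced reads with H3B-8800 and 4.35 with DMSO, a ratio of 4.08 that was 2.33 without the one with the most intronic reads. Introns without a snoRNA had a ratio of 2.30, or 2.06 without the one with the most intronic reads. Of tested introns, 16 of 25 with a snoRNA rose and 1 fell, and 49 of 78 without one rose and 6 fell. Over all tested introns of any gene, 56.5% rose. Among the 5 snoRNA introns with the most intronic reads in DMSO, a choice that uses the DMSO values, 3 were raised. Intron 5 of RPL7A (chr9:133350320-133350596, plus strand, SNORD36A) had 322 and 339 intronic reads against 197 and 193, and the ratio rose by 1.35 (SE 0.20). Intron 2 of RPL23A (chr17:28720891-28722722, plus strand, SNORD4A) had 252 and 262 against 159 and 130, a rise of 0.81 (SE 0.20), with AC010761.1 antisense to it, and was not called with no filter or with DESeq2 (adjusted p 0.119 and 0.107). Intron 3 of RPL4 (chr15:66502751-66503057, minus strand, SNORD16) had 159 and 152 against 104 and 111, a rise of 0.62 (SE 0.22) that was not called when any 1 library was left out (0.52 to 0.72). Intron 1 of RPL23A (SNORD42B, -0.43, SE 0.22) and intron 1 of RPL3 (SNORD43, -0.20, SE 0.29) did not pass, and their groups overlapped in intronic reads.

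The intronic reads alone, scaled to library totals, rose in 58 and fell in 7 of the 103 member introns (edgeR, Benjamini-Hochberg adjusted p under 0.05), against 48.2% and 5.74% of all 12013 introns tested. The median was 1.13 in both. TMM scaling, which sets the bulk of introns near no change, gave 33 higher and 20 lower members, with a median of 0.09, against 21.3% and 19.4% of all introns. The count of this test fell to 0 in both directions when either H3B-8800 library was left out (smallest adjusted p 0.094 and 0.093), although 52 and 48 member introns then still had an unadjusted p under 0.05 (edgeR).

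Translation through a retained intron would meet a stop codon in most of the member introns that could be read. For 65 coding introns whose sequence could be read, the frame entering from the upstream exon ran into a stop inside the intron in 61. Intron 1 of RPL24 has one ending 4 bases in, and intron 4 of RPL11 one ending 6 bases in. Intron 2 of RPL9 is among the 4 without one, with RPL3 intron 9, RPL38 intron 2 and RPLP0 intron 4, and its 84 bases would add 28 codons in frame. This is a property of the annotated sequence, and no protein was measured. Introns of other genes were not read in this way, so whether the share is particular to the members is not known.

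Large subunits are put together in the nucleolus by assembly factors, and these moved in both directions. Of 54 factors looked for, 51 were in the tables and tested, while RRS1, DDX24 and PPAN were not analysed here. Spliced reads rose in 23 and fell in 21 (edgeR, Benjamini-Hochberg adjusted p under 0.05), beside 32.8% and 32.7% of all tested genes, or in 18 and 23 with library totals. Whether the factors differ from the members was not tested. FTSJ3, a methyltransferase of pre-ribosomal RNA, had 79.8 and 72.9 CPM with H3B-8800 against 194.5 and 198.6 in DMSO libraries, and fell by 1.37 (SE 0.065). BOP1, of the complex that prepares the 5.8S and 28S RNA, fell by 1.31 (SE 0.062) and NOC2L by 1.10 (SE 0.053). RSL24D1, a placeholder for RPL24 in early particles, had 242.9 and 218.6 CPM against 116.9 and 111.3, a rise of 1.02 (SE 0.064), and CEBPZ (0.88, SE 0.053) and BRIX1 (0.75, SE 0.051) rose too. The groups stood apart in FTSJ3 and RSL24D1. The ratio of intronic to spliced reads rose in 39 of the 45 factors tested for it, beside 65.4% of all tested genes.

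Of 7 paralogs of large subunit proteins, 6 were tested and RPL10L was not analysed here. RPL22L1, the paralog of RPL22, had 573 and 523.7 CPM with H3B-8800 against 738.8 and 720.6 in DMSO libraries, and fell by 0.41 (SE 0.047; edgeR, Benjamini-Hochberg adjusted p = 4.9e-06), while RPL22 rose. RPL7L1 fell by 0.19 (SE 0.071). RPL26L1 (-0.05), RPL36AL (-0.02), RPL3L (0.40) and RPL39L (-1.09, SE 0.47) did not pass, and RPL39L had only 9 and 10 spliced reads with H3B-8800 beside 28 and 21 with DMSO.

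Members have up to 84 annotated processed pseudogenes (RPL23A), and reads that fit a pseudogene as well as its parent gene could be placed at either, so levels and changes of these genes carry that uncertainty. Even numbers made up 54.5% to 62.3% of the members' non-zero intronic counts per library, against 70.9% to 72.3% over all introns, so the mates of a pair may have been counted separately.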

How the data were processed

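Strand-specific libraries of polyA-selected cytoplasmic RNA were made per the labels' protocols. The submitters' processing notes name HISAT2 2.0.4 and, as builds, hg38 and mm10. The counting of reads is not described in the sources used here. The deposited tables give 2 counts and an RPKM value per intron, without a header, for 142224 introns, of which 18 had no second count. The authors' RPKM values were used only to recover library totals. The first deposited count was taken as intronic reads and the excess of the second as spliced reads, a reading inferred from the values. Of the introns, 99.9% match GENCODE release 29, which gave intron numbers, so coordinates are hg38, 1-based.

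Spliced counts were summed per gene and tested with edgeR 4.0.16 (R 4.3.3; quasi-likelihood, TMM, mean of at least 1 CPM). A read across several introns counts at each. The intronic-to-spliced ratio was tested as an interaction with a term per library, for means of at least 10 reads of each kind, and intronic reads with library totals. All fits ran over the whole table, with Benjamini-Hochberg adjustment and a threshold of 0.05. SEs were approximated from the F statistic, which is unreliable for changes very near 0. P-values measure only the spread between these libraries. Alternatives used DESeq2 1.42.0, other scalings and filters, introns without an exon inside, a replicate term and leaving out each library. The tests were tested on simulated data.

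Members, roles and lists were chosen with earlier results of these data known. Named were the 6 members with the smallest adjusted p among rises and up to 8 among falls of spliced reads, 10 members set by name, the 6 largest and 3 smallest gene ratio changes, 8 raised and 5 lowered introns, 5 snoRNA introns, 6 introns nearest no change, 3 assembly factors in each direction and every tested paralog. Other genes named for their counts by role were chosen after their values were seen. 1 member is counted but is not reported by name here, and the figures leave it out.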

Additional observations from a re-analysis of the deposited data

How the results depend on the processing

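Spliced reads: 17 members rose and 13 fell with library totals in place of 29 and 5, 14 and 1 of 23 in introns without an exon inside, and 3 fell without each gene's most-read intron. With library totals 9 of 43 genes changed sign, 4 of them called higher with TMM, and among the 9 were RPL11 (-0.12), RPL34 (-0.08), RPL8 (-0.06), RPL28 (-0.04) and RPL30 (-0.11). Leaving out 1 library gave 25 to 28 higher and 3 to 4 lower. Ratio per intron: 65 and 7 became 8 and 0 of 11 without an exon inside, lower calls were 2 with no filter and 4 with DESeq2, and leaving out 1 library gave 48 to 64 higher and 3 to 6 lower. Ratio per gene: 31 and 4 became 6 and 0 of 12 without an exon inside, lower calls were 2 with DESeq2, and leaving out 1 library gave 27 to 32 and 1 to 3. Intronic reads: 58 and 7 became 33 and 20 with TMM scaling and 6 and 0 without an exon inside. Lower calls were 3 with no filter and 3 with DESeq2, and leaving out 1 library gave 0 to 60 higher and 0 to 6 lower. TMM scaling changed the sign in 30 of 103 introns, from higher to lower calls in RPL10A intron 3 (0.45 to -0.60). The 30 included RPL23A intron 2 (-0.12), RPL3 intron 1 (-0.86), RPL41 intron 1 (-0.77), RPL4 intron 3 (-0.42) and RPL7A intron 5 (-0.19). The share difference of 0.857 percentage points was 0.233 without an exon inside, 0.723 without the most-read intron and 0.425 as a median per gene, and 0.841 to 0.872 with 1 library left out. Fewer introns enter the tests without an exon inside. For the other changes the cause was not tested. Same-numbered replicates did not deviate together (correlation 0.05 over genes and 0.01 over introns). With the replicate block, 32 and 6 genes, 63 and 5 intron ratios, 32 and 3 gene ratios and 56 and 6 introns were higher and lower. Depth limits the 70 untested introns.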
